A study of Mus musculus with 15 samples.

Results

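The insulin and IGF signalling genes described here are the 2 receptors *Insr* and *Igf1r*, the receptor adaptors *Irs1* and *Irs2*, the phosphoinositide 3-kinase (PI3K) subunits *Pik3r1* and *Pik3ca*, the kinase *Pdpk1*, and the kinases *Akt1* and *Akt2*. They were found by gene symbol, and each of the 9 was listed 1 time among 22924 genes with a single usable entry. All 9 were among the 11253 genes tested, which had a mean of at least 1 FPKM (fragments mapped to a gene, scaled for transcript length and library depth) over the libraries. RNA was sequenced from 15 libraries of mouse islet cells sorted for red fluorescent protein (RFP), which a cre recombinase had switched on, and split by their turnover of a fluorescent aldehyde dehydrogenase (ALDH) substrate into ALDH- and ALDH+ cells. Control cells were labelled heterozygous for Foxo1, Foxo3 and Foxo4. The study's sorting methods instead describe controls with Rip-cre and intact Foxo genes. Controls with floxed Foxo genes and no cre, which the methods also name, would not have switched on RFP. Whether the control libraries were heterozygous or intact for Foxo cannot be settled here. Control cells gave 3 ALDH- and 2 ALDH+ libraries. Foxo knockout cells were labelled as knockouts of all 3 genes and gave 5 ALDH- and 5 ALDH+ libraries. All mice were on the mixed 129JC57BL/6 background. The labels give no age, while the study's sorting methods state mice 6 months old and name only Rip-cre animals. An age for the libraries labelled Pdx-cre is therefore not given. Rip-cre, which recombines in insulin-expressing cells, drove 9 libraries. Pdx-cre, which recombines in pancreatic precursors and can mark other pancreatic lineages as well, drove the other 6: control ALDH- 3, control ALDH+ 2, and knockout libraries 4 and 5 of each population. The labels do not say whether a library came from 1 animal or from a pool, so the p-values measure the spread between these libraries, which may in part be technical.

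Insulin and the insulin-like growth factors bind receptor tyrosine kinases, which phosphorylate the insulin receptor substrates. These recruit PI3K, whose lipid product brings the Akt kinases to the membrane, where the *Pdpk1* product phosphorylates them. Active Akt in turn phosphorylates the Foxo transcription factors and keeps them out of the nucleus, so that the Foxo proteins are at the far end of this pathway. In β cells, signalling through *Irs2* is known for its part in maintaining cell mass, and Foxo proteins are known to activate *Irs2* and *Insr* in several tissues.

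The libraries matched their labels for the sort and for *Foxo1*. *Aldh1a3*, a retinaldehyde dehydrogenase, was at 0.490 to 4.09 FPKM in ALDH- libraries and at 22.1 to 76.9 FPKM in ALDH+ libraries. *Foxo1* was at 12.0 to 20.1 FPKM in the 5 control libraries and at 0.0925 to 4.24 FPKM in the 10 knockout libraries. *Foxo3* did not separate the genotypes (12.7 to 23.0 FPKM in control and 9.78 to 30.6 FPKM in knockout libraries), and *Foxo4* was low throughout, at 0 to 1.34 FPKM in control and 0 to 0.0669 FPKM in knockout libraries. The tables give 1 value per gene, so they do not show which exons carried the reads. Summed over 8 of the 10 β-cell markers listed, FPKM was 35641 to 128161, so β-cell marker RNA was abundant in every library. This sum leaves out *Ins1* and *Ins2*, whose estimates were too deep in every or in some libraries. Such a sum can rest on a few abundant genes, so it does not show each marker in each library. Markers of other islet cells were also present: the summed FPKM of 5 α-cell markers was 9570 to 35870 in the 3 Pdx-cre ALDH- libraries and 199 to 5853 in the other 12. In bulk RNA, fewer cells of a type and less RNA per cell cannot be told apart.

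*Igf1r* was the most abundant of the 9 transcripts, at a median of 92.0 FPKM over the 15 libraries. This level exceeded that of 94.5% of the genes tested, and *Irs1*, at a median of 1.95 FPKM, exceeded 12.5%. Between them the order of medians was *Pdpk1* (40.9 FPKM), *Akt1* (27.3 FPKM), *Akt2* (22.3 FPKM), *Pik3r1* (20.5 FPKM), *Insr* (12.3 FPKM), *Irs2* (12.2 FPKM) and *Pik3ca* (6.93 FPKM). *Igf1r* was above *Pdpk1*, *Pdpk1* above *Akt1*, *Pik3r1* above *Insr* and *Pik3ca* above *Irs1* in all 15 libraries. Other neighbours changed places: *Akt1* was above *Akt2* in 11 libraries, *Akt2* above *Pik3r1* in 8, *Insr* above *Irs2* in 7, and *Irs2* above *Pik3ca* in 13. The depth behind these values ranged from 86 fragments (*Irs1* in its shallowest library, a counting error of 10.8%) to 18291 fragments (*Igf1r*), as worked out from the authors' confidence intervals.

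**Figure D1:**
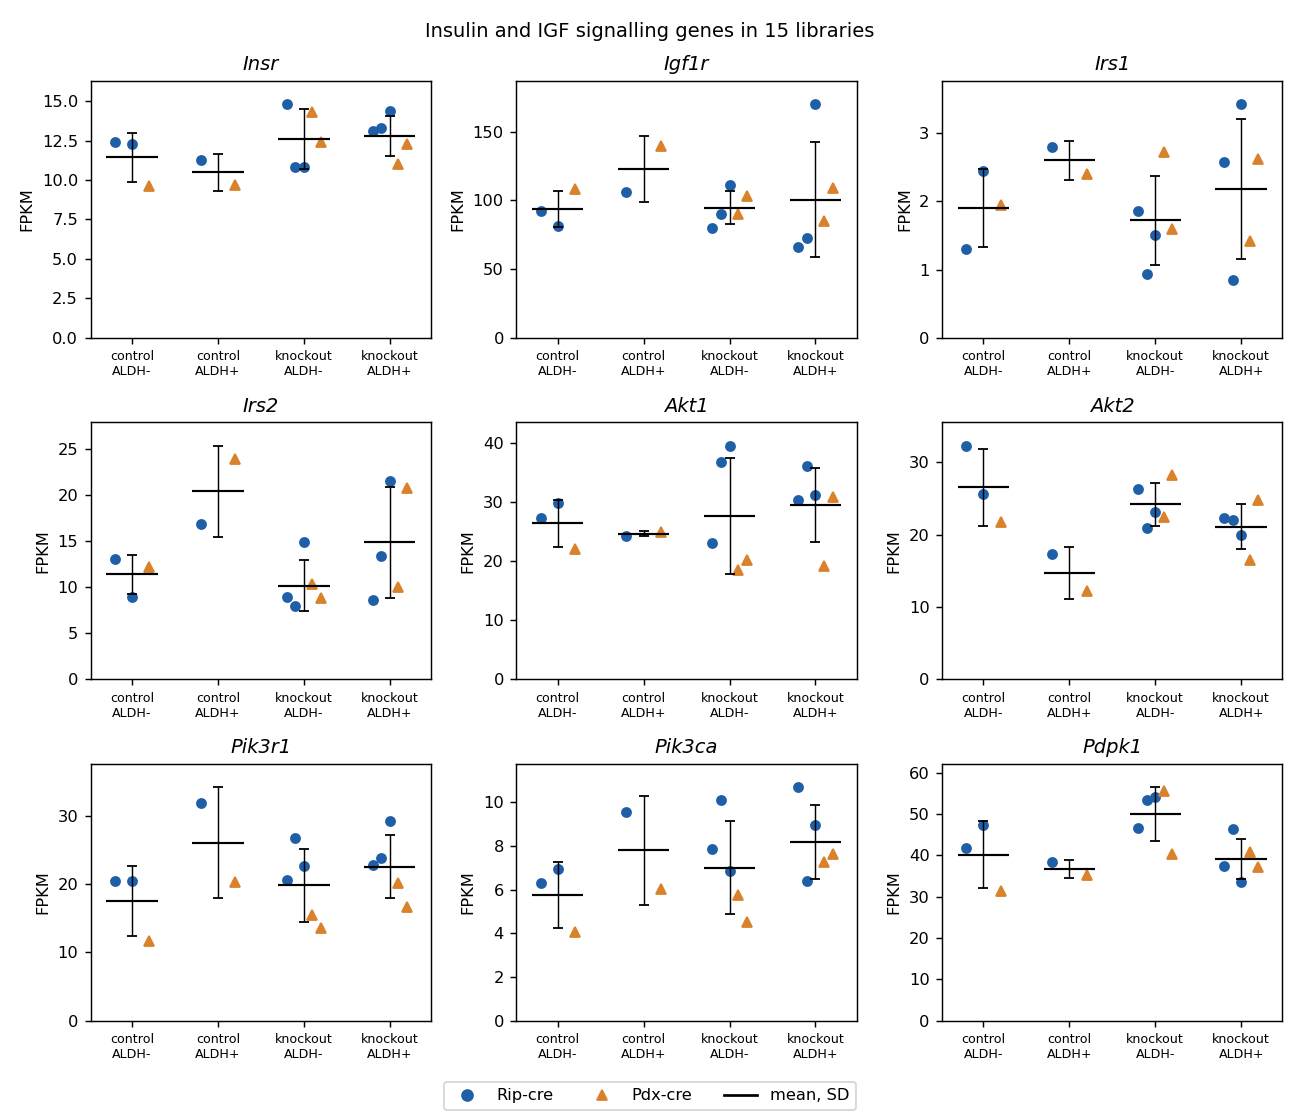
FPKM of the 9 genes in each of the 15 libraries, by group, with circles for Rip-cre and triangles for Pdx-cre libraries and the group mean with its SD in black (2, 3 or 5 libraries a group). All 6 Pdx-cre libraries lie below the 9 Rip-cre libraries for *Pik3r1*, the control ALDH+ libraries lie below the control ALDH- libraries for *Akt2*, and *Insr* varies least of the 9 over all libraries.

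The receptors were steady or spread within groups. *Insr*, the insulin receptor, was at 12.4, 12.3 and 9.65 FPKM in control ALDH- cells and at 11.3 and 9.66 FPKM in control ALDH+ cells. In Foxo knockout cells it was at 14.8, 10.8, 10.8, 14.3 and 12.4 FPKM in ALDH- libraries and at 13.1, 13.3, 14.4, 11.0 and 12.3 FPKM in ALDH+ libraries. Its highest library was 1.54 times its lowest, and 6 of the 10 knockout libraries were above every control library. *Igf1r*, the IGF-1 receptor, was at 92.0, 81.4 and 108 FPKM in control ALDH- cells and at 106 and 140 FPKM in control ALDH+ cells. Knockout ALDH- libraries had 80.1, 90.4, 111, 89.8 and 103 FPKM, and knockout ALDH+ libraries had 66.4, 72.7, 170, 84.8 and 109 FPKM. The knockout ALDH+ group thus held both the lowest and the highest *Igf1r* value of the series. *Igf1r* exceeded *Insr* 5.05-fold to 14.5-fold within a library, with a median of 8.30-fold.

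The adaptors link the receptors to PI3K. *Irs1* was at 1.30, 2.45 and 1.95 FPKM in control ALDH- cells, 2.80 and 2.40 FPKM in control ALDH+ cells, 1.86, 0.928, 1.50, 2.72 and 1.60 FPKM in knockout ALDH- cells, and 2.57, 0.853, 3.42, 1.42 and 2.62 FPKM in knockout ALDH+ cells. *Irs2* was at 13.0, 8.92 and 12.2 FPKM in control ALDH- cells and at 16.9 and 23.9 FPKM in control ALDH+ cells. In knockout cells *Irs2* was at 8.93, 7.90, 14.9, 10.3 and 8.81 FPKM in ALDH- libraries and at 8.56, 13.4, 21.5, 9.97 and 20.8 FPKM in ALDH+ libraries. For *Irs2*, 4 of the 7 ALDH+ libraries were above every ALDH- library. The 2 control ALDH+ libraries were above the 3 control ALDH- libraries, as for 14.0% of all genes tested. *Irs2* was the more abundant adaptor in every library, 3.33-fold to 15.7-fold above *Irs1* with a median of 6.28-fold.

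PI3K joins a regulatory and a catalytic subunit. *Pik3r1*, the regulatory subunit p85α, was at 20.5, 20.5 and 11.6 FPKM in control ALDH- cells and at 31.8 and 20.3 FPKM in control ALDH+ cells. Knockout ALDH- libraries had 20.6, 26.7, 22.7, 15.5 and 13.6 FPKM, and knockout ALDH+ libraries had 22.8, 23.8, 29.3, 20.2 and 16.7 FPKM. The low values in each group were those of the Pdx-cre libraries. *Pik3ca*, the catalytic subunit p110α, was at 6.32, 6.93 and 4.07 FPKM in control ALDH- cells, 9.58 and 6.05 FPKM in control ALDH+ cells, 7.86, 10.1, 6.84, 5.76 and 4.52 FPKM in knockout ALDH- cells, and 10.7, 6.38, 8.97, 7.27 and 7.64 FPKM in knockout ALDH+ cells. The regulatory subunit exceeded the catalytic one 2.14-fold to 3.73-fold within a library, a narrower range than that of *Igf1r* over *Insr* or *Irs2* over *Irs1*.

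*Pdpk1* encodes the kinase that activates Akt. It was at 41.7, 47.4 and 31.4 FPKM in control ALDH- cells and at 38.3 and 35.1 FPKM in control ALDH+ cells. Knockout ALDH- libraries had 46.6, 53.3, 54.2, 55.6 and 40.2 FPKM, and knockout ALDH+ libraries had 37.3, 46.3, 33.5, 40.9 and 37.1 FPKM. Among knockouts, 3 of the 5 ALDH+ libraries were below every ALDH- library. The fragments worked out for *Pdpk1* did not follow its FPKM. Knockout ALDH- 2 had 53.3 FPKM from 1366 fragments, and knockout ALDH+ 4 had 40.9 FPKM from 2932. Fragments were 1366 to 2806 in knockout ALDH- and 1641 to 2932 in knockout ALDH+ libraries, so they were not lower in ALDH+ cells. The reason was not tested. *Akt1*, the broadly expressed Akt isoform, was at 27.3, 29.8 and 22.0 FPKM in control ALDH- cells, 24.3 and 24.9 FPKM in control ALDH+ cells, 23.0, 36.7, 39.5, 18.5 and 20.2 FPKM in knockout ALDH- cells, and 30.4, 36.1, 31.1, 19.1 and 30.8 FPKM in knockout ALDH+ cells. *Akt2*, the isoform best known for insulin-regulated glucose metabolism, was at 32.3, 25.6 and 21.8 FPKM in control ALDH- cells and at 17.3 and 12.2 FPKM in control ALDH+ cells. In knockout cells *Akt2* was at 26.3, 20.9, 23.1, 22.5 and 28.2 FPKM in ALDH- libraries and at 22.3, 22.0, 19.9, 16.5 and 24.8 FPKM in ALDH+ libraries. For *Akt2*, 4 of the 7 ALDH+ libraries were below every ALDH- library. The 2 control ALDH+ libraries were below the 3 control ALDH- libraries, as for 15.6% of all genes tested.

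The first question was whether these genes differ between ALDH+ and ALDH- cells. *Akt2* was lower in ALDH+ cells, at a mean of 14.7 ± 3.60 FPKM (SD, n = 2) against 26.6 ± 5.36 FPKM (SD, n = 3) in control cells and 21.1 ± 3.12 against 24.2 ± 3.00 FPKM (SD, n = 5 each) in knockout cells. Averaged over genotypes its difference was -0.50 on the scale of log2(rescaled FPKM + 1) (standard error 0.14, 95% interval -0.80 to -0.20, adjusted p = 0.0457, limma with Benjamini-Hochberg adjustment over all genes tested). It was the only one of the 9 past the threshold of 0.05. Of all genes tested, 5.98% passed in this comparison, 2.22% as higher and 3.76% as lower, and with 9 genes a single call is no result about the group as a whole. The median difference of the 9 genes was 0.17, with 6 positive and 3 negative. The median of all genes tested was -0.02, with 5369 of 11253 positive. In the quartile of longest transcripts, which holds 8 of the 9 genes, the median was 0.14.

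*Irs2*, whose difference was the largest of the 9 in size, and *Pik3r1* both had higher values in ALDH+ cells, and neither passed. *Irs2* had a difference of 0.60 (standard error 0.23, 95% interval 0.12 to 1.08, adjusted p = 0.134, limma). *Pik3r1* had a difference of 0.41 (standard error 0.12, 95% interval 0.15 to 0.68, adjusted p = 0.0613, limma). For *Pik3ca* the interval ran from -0.04 to 0.69 and for *Pdpk1* from -0.47 to 0.01. The intervals of *Insr* (-0.33 to 0.24), *Akt1* (-0.30 to 0.40), *Igf1r* (-0.24 to 0.58) and *Irs1* (-0.31 to 0.79) all included 0.

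An exact permutation test of each gene alone, two-sided, exchanged the ALDH labels within genotype (2520 arrangements, smallest possible p = 0.000397). The exact p was 0.0107 for *Akt2*, 0.0159 for *Irs2*, 0.0179 for *Pdpk1* and 0.0901 for *Pik3r1*, with 0.112 to 0.912 for the other 5. These 9 values are not adjusted and do not take the cre driver into account. For *Pdpk1* the exact test gave 0.0766 when the FPKM values were used as deposited, without rescaling between libraries. The *Pdpk1* FPKM values also did not follow its fragments, as given above.

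Within each cre driver, the direction for *Akt2* was the same. Its difference was -0.40 over the 9 Rip-cre libraries (adjusted p = 0.245, limma) and -0.60 over the 6 Pdx-cre libraries (adjusted p = 0.847, limma), the second fit added after seeing the data. The corresponding differences were 0.50 and 0.69 for *Irs2* and 0.37 and 0.49 for *Pik3r1*, none past the threshold. All 3 Pdx-cre ALDH+ libraries were above all 3 Pdx-cre ALDH- libraries for *Pik3r1* and for *Pik3ca*, as for 8.10% of all genes tested. Other islet cells' markers moved with that contrast, with an α-cell sum of 9570 to 35870 FPKM in the Pdx-cre ALDH- and 303 to 5853 FPKM in the Pdx-cre ALDH+ libraries and a δ-cell sum of 8443 to 14029 and 770 to 3098 FPKM, and their part in it was not tested. The ALDH difference did not differ detectably between cre drivers for any of the 9 (adjusted p = 0.994 to 0.995, limma), where 0% of all genes passed and 511 had an unadjusted p under 0.05. The intervals of that difference are wide, from -0.76 to 0.41 for *Akt2*.

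The call of *Akt2* was not stable. It was lost in 19 of 26 alternative settings, among them the use of FPKM as deposited (adjusted p = 0.0575, limma) and the omission of any single library except knockout ALDH- 2, knockout ALDH- 4 or knockout ALDH+ 5 (adjusted p = 0.0569 to 0.196 without the others), while its difference stayed between -0.61 and -0.40. The summed FPKM of the 8 β-cell markers moved with the same contrast. Its median was 108510 in control ALDH-, 53598 in control ALDH+, 104119 in knockout ALDH- and 90793 in knockout ALDH+ cells. The sum leaves out *Ins1* and *Ins2* and is not split by marker, and its part in these differences was not tested. Transcript length also moved with the ALDH contrast. The median difference was -0.26 in the shortest quartile of genes and 0.14 in the longest. Of the 9 members, 8 belong to the longest quartile (*Akt1* is in the second). With that trend removed the difference of *Akt2* was -0.58 (adjusted p = 0.0417, limma), that of *Irs2* 0.45 (adjusted p = 0.325, limma), and that of *Pik3r1* 0.24 (adjusted p = 0.327, limma).

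**Figure D2:**
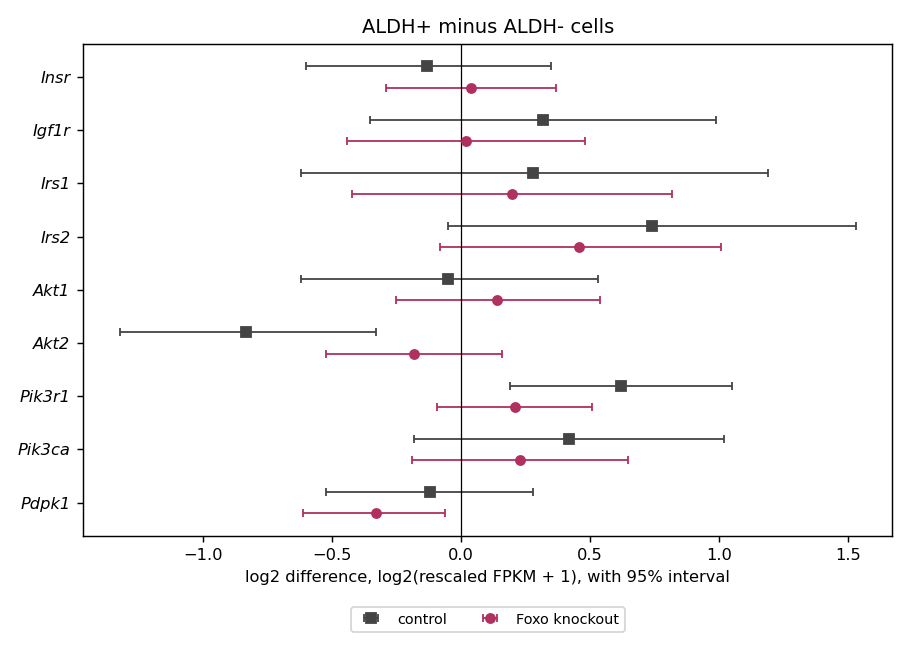
Difference between ALDH+ and ALDH- cells on the log2(rescaled FPKM + 1) scale for the 9 genes, in control cells (squares) and in Foxo knockout cells (circles), with 95% intervals from limma. In control cells the intervals of *Akt2* (-0.83) and *Pik3r1* (0.62) do not include 0, and in knockout cells only that of *Pdpk1* (-0.33) does not, before adjustment for multiple tests.

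By genotype, none of the 9 genes passed the adjusted threshold. In control cells the difference between ALDH+ and ALDH- was -0.83 for *Akt2* (standard error 0.23, adjusted p = 0.0944, limma), 0.62 for *Pik3r1* (standard error 0.20, adjusted p = 0.153, limma) and 0.74 for *Irs2* (standard error 0.37, adjusted p = 0.398, limma). Of all genes, 1.22% passed there. With 2 control libraries against 3, an exact two-sided test within control cells cannot go below p = 0.1. In knockout ALDH+ cells the fragments of *Pdpk1* did not fall with its FPKM, as given above. In knockout cells its difference was -0.33 (standard error 0.13, adjusted p = 0.283, limma). Its exact permutation p was 0.0159 over 252 arrangements (n = 5 against 5, two-sided, smallest possible 0.00794). There *Irs2* had a difference of 0.46 and *Akt2* one of -0.18, with exact permutation p = 0.175 and p = 0.214, and 0.0178% of all genes passed, which are 2 genes (1472 had an unadjusted p under 0.05).

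The ALDH differences were then compared between genotypes. For *Akt2* the knockout difference minus the control difference was 0.65 (standard error 0.28, 95% interval 0.04 to 1.25), with an unadjusted p of 0.0369 and an adjusted p of 0.998 by limma. For the other 8 genes this value lay between -0.41 and 0.19, with adjusted p = 0.998 throughout (limma). No gene of the whole table passed (0%), and 476 had an unadjusted p under 0.05. A difference between genotypes in the ALDH response was therefore not detectable for these genes with 2 control ALDH+ libraries.

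The next question was whether loss of Foxo went with a change of the genes upstream of it. None of the 9 passed in ALDH- cells, where 0.0178% of all genes passed (2 genes, with 650 at an unadjusted p under 0.05), or in ALDH+ cells, where 0% passed (744 at an unadjusted p under 0.05). The knockout comparisons share their libraries with the ALDH comparisons above. *Foxo1* itself differed by -2.54 on the log2 scale in ALDH- cells (standard error 0.42) and missed the adjusted threshold (adjusted p = 0.0604, limma), as it did in ALDH+ cells (-2.61, standard error 0.48, adjusted p = 0.201, limma), so the adjusted threshold was not reached even by the deleted gene at this number of libraries.

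*Pdpk1* had the largest positive difference between genotypes in ALDH- cells and *Akt2* in ALDH+ cells. *Pdpk1* was at a mean of 50.0 ± 6.46 FPKM (SD, n = 5) in knockout and 40.2 ± 8.07 FPKM (SD, n = 3) in control ALDH- cells, a difference of 0.32 (95% interval -0.00 to 0.64, adjusted p = 0.857, limma). *Akt2* differed by 0.53 in ALDH+ cells (95% interval 0.07 to 0.98, adjusted p = 0.708, limma) and by -0.12 in ALDH- cells (95% interval -0.51 to 0.27). *Insr* differed by 0.13 in ALDH- cells (95% interval -0.25 to 0.51) and by 0.29 in ALDH+ cells (95% interval -0.14 to 0.73). *Irs2* differed by -0.18 (95% interval -0.81 to 0.45) and -0.46 (95% interval -1.18 to 0.27) in the same order. In ALDH+ cells the intervals of *Irs2* and *Irs1* (-1.03 to 0.62) reached beyond a fall of 1 log2 unit, so changes of that size were not excluded.

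Genotype labels were also exchanged within ALDH- and within ALDH+ cells, a test chosen after the values had been seen (1176 arrangements, exact, two-sided, unadjusted). *Insr* differed by 0.21 on the log2 scale, knockout minus control (exact p = 0.0298), and *Pdpk1* also by 0.21 (exact p = 0.0281). The exact p of the other 7 genes lay between 0.216 and 0.974. The ranges of knockout and control libraries overlapped for all 9 genes, and failed to overlap for 0.160% of all genes tested.

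**Figure D3:**
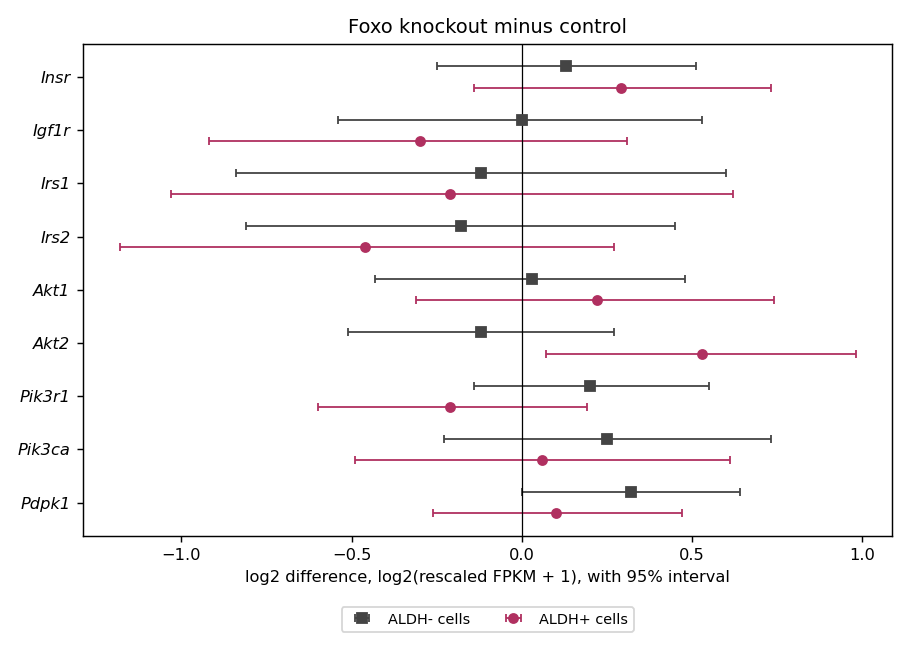
Difference between Foxo knockout and control cells on the log2(rescaled FPKM + 1) scale for the 9 genes, in ALDH- cells (squares) and ALDH+ cells (circles), with 95% intervals from limma. The interval of *Akt2* in ALDH+ cells (0.07 to 0.98) is the only one that lies wholly above 0, before adjustment, and no gene passed after it.

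Letters of forkhead binding sites were looked up in the promoters, since the knockout removes forkhead factors. RefSeq windows of GRCm38.p6, from 250 bases before to 50 bases after a gene's start, were given for 8 of the 9 genes (14 windows) and not for *Insr*. The forkhead core GTAAACA, on either strand, was in 1 of the 14 windows (3.65% of 32851 windows of all genes), that of *Akt1*. The insulin response element core CAAAACA was in 2 of the 14 (6.28% of all windows), those of *Irs1* and *Irs2*. The 3 stretches that hold these letters are printed on the strand of the gene, with the matched letters in capitals, read as the reverse complements TGTTTAC and TGTTTTG.
Akt1, chr12:112675019-112675065, minus strand: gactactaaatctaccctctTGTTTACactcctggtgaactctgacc
Irs1, chr1:82291445-82291570, minus strand: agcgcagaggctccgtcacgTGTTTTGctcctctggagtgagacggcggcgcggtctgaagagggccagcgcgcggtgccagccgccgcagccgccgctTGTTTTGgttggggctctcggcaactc
Irs2, chr8:11008940-11008986, minus strand: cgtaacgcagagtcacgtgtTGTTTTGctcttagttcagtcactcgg
The match begins 161 bases before the start for *Akt1*, 111 and 32 bases before it for *Irs1*, and 37 bases before it for *Irs2*. None of these 3 genes passed in the comparison of knockout with control cells, where their differences were 0.03, -0.12 and -0.18 in ALDH- cells and 0.22, -0.21 and -0.46 in ALDH+ cells, in the order *Akt1*, *Irs1*, *Irs2*. A match of letters does not show that a factor binds there.

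The cre driver separated the libraries for *Pik3r1*. The 6 Pdx-cre libraries had 11.6 to 20.3 FPKM (median 16.1) and the 9 Rip-cre libraries had 20.5 to 31.8 FPKM (median 22.8), without overlap, as for 1.05% of all genes tested in that direction. The difference of Pdx-cre from Rip-cre was -0.55 (standard error 0.12, 95% interval -0.80 to -0.30, adjusted p = 0.00861, limma). *Pik3r1* was the only one of the 9 genes to pass, in a comparison where 9.73% of all genes passed, 5.68% as higher and 4.05% as lower. It passed in each of 23 alternative settings, with a difference between -0.59 and -0.40 and an adjusted p of 0.00597 to 0.0393 (limma).

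*Akt1* and *Pik3ca* differed in the same direction without passing: -0.39 (standard error 0.16, adjusted p = 0.127, limma) and -0.41 (standard error 0.16, adjusted p = 0.131, limma). Exchanging cre labels within the 4 groups, a test chosen after the values had been seen (600 arrangements, two-sided), gave an exact p of 0.00167 for *Pik3r1*, the smallest this design allows, 0.00833 for *Pik3ca* and 0.0350 for *Akt1*. The other 6 genes had an exact p between 0.162 and 0.583, and medians of 105 FPKM in Pdx-cre and 90.4 FPKM in Rip-cre libraries for *Igf1r* and 11.6 and 12.4 FPKM for *Insr*.

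Markers of several other cell types moved with the cre driver, and their part in the *Pik3r1* result was not tested. Among ALDH- libraries the summed FPKM of the α-cell markers was 730 to 947 with Rip-cre and 9570 to 35870 with Pdx-cre, that of the 3 δ-cell markers 436 to 1077 and 8443 to 14029, and that of the 2 PP-cell markers 539 to 2175 and 2988 to 18184. Among ALDH+ libraries the α-cell sum was 199 to 1090 with Rip-cre and 303 to 5853 with Pdx-cre, the δ-cell sum 520 to 1331 and 770 to 3098, and the PP-cell sum 371 to 816 and 318 to 4433. Acinar markers summed to at most 1.72 FPKM with Rip-cre, to 0.140 to 364 FPKM in Pdx-cre ALDH- and to 0.285 to 1373 FPKM in Pdx-cre ALDH+ libraries, while 4 of 5 endothelial markers were under 1 FPKM in every library. Immune-cell markers, 4 in all, summed to 21.2 to 38.3 FPKM with Rip-cre and to 42.0 to 160 FPKM with Pdx-cre, without overlap. Among ALDH+ libraries this sum was 21.2 to 38.3 FPKM with Rip-cre and 42.0 to 73.9 FPKM with Pdx-cre. Of these 4 markers, *Ptprc* and *Lyz2* were under 1 FPKM in every library. Duct markers, 5 in all, overlapped at 211 to 456 FPKM with Rip-cre and 246 to 821 FPKM with Pdx-cre. Of these, *Sox9* and *Cftr* were under 1 FPKM in every library, as were all 5 stromal markers. *Pik3r1* was at 16.7 to 20.3 FPKM in the Pdx-cre and 22.8 to 31.8 FPKM in the Rip-cre ALDH+ libraries. Genes in the longest quartile of transcripts had a median difference of -0.14 in this comparison, and with the length trend removed *Pik3r1* had a difference of -0.40 (adjusted p = 0.0393, limma).

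Ratios between related members were formed within each library, a step chosen after the values had been seen. *Akt1* over *Akt2* was 0.714 to 1.76 in ALDH- libraries (median 0.941) and 1.16 to 2.04 in ALDH+ libraries (median 1.41), a log2 difference of 0.55 within genotype (exact permutation p = 0.0266, two-sided, unadjusted). The other 3 ratios, *Igf1r* over *Insr*, *Irs2* over *Irs1* and *Pik3r1* over *Pik3ca*, had exact permutation p-values of 0.348, 0.438 and 0.599 for the same contrast. The ratio of the Akt isoforms rests on the same *Akt2* values as the comparison above and is not separate evidence.

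The rest of the pathway was described with a list of 72 further genes in 6 role groups, of which 53 were tested. Another 16 were below 1 FPKM on average. *Ins1* was too deep to estimate in every library and *Ins2* in some, and *Hras* was not analysed here. In ALDH+ against ALDH- cells, averaged over genotypes, none of the 53 passed (33 positive and 20 negative, median 0.11, 11 at an unadjusted p under 0.05). Of all 11253 genes tested 5.98% passed and 2339 had an unadjusted p under 0.05. The largest difference in each role group was that of *Insrr* among ligands, binding proteins and receptors (0.43), *Cbl* among adaptors (0.45), *Rictor* in the PI3K and Akt group (0.59), *Socs2* among negative regulators (0.54), *Akt1s1* among Akt substrates (-0.63) and *Map2k2* in the Ras-MAPK branch (-0.51). Of these, *Rictor*, a subunit of the complex that phosphorylates Akt, came nearest to passing (adjusted p = 0.0756, limma), at 3.60 to 8.78 FPKM in ALDH- and 5.09 to 13.3 FPKM in ALDH+ libraries. *Akt1s1*, an Akt substrate that restrains mTORC1, had an adjusted p of 0.0836 (limma), at 6.94 to 11.1 FPKM in ALDH- and 3.40 to 8.61 FPKM in ALDH+ libraries. Nor did any of the 53 genes pass in either genotype alone, between genotypes, or in either test of a difference in ALDH response.

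Between cre drivers, 6 of the 53 passed, 4 lower and 2 higher in Pdx-cre libraries, beside 9.73% of all genes. *Insrr*, a receptor related to the insulin receptor, was at 6.81 to 27.9 FPKM with Pdx-cre and 25.2 to 72.0 FPKM with Rip-cre, a difference of -1.49 (adjusted p = 0.00246, limma). *Inpp4b*, a phosphatase of PI3K lipid products, was at 0 to 0.897 FPKM and 0.0821 to 8.30 FPKM, a difference of -1.63 (adjusted p = 0.00605, limma). Being under 1 FPKM in every Pdx-cre library, it met the filter only through the Rip-cre libraries where it is high. Its call is therefore a description only. *Pde3b*, a phosphodiesterase phosphorylated by Akt, differed by -0.64 (adjusted p = 0.00955, limma) and the kinase *Braf* by -0.45 (adjusted p = 0.0274, limma). *Trib1*, a pseudokinase of a family that binds Akt, was higher by 0.62 (adjusted p = 0.00819, limma) and the kinase *Map2k1* by 0.65 (adjusted p = 0.0323, limma). The marker sums given for *Pik3r1* apply here as well.

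**Figure D4:**
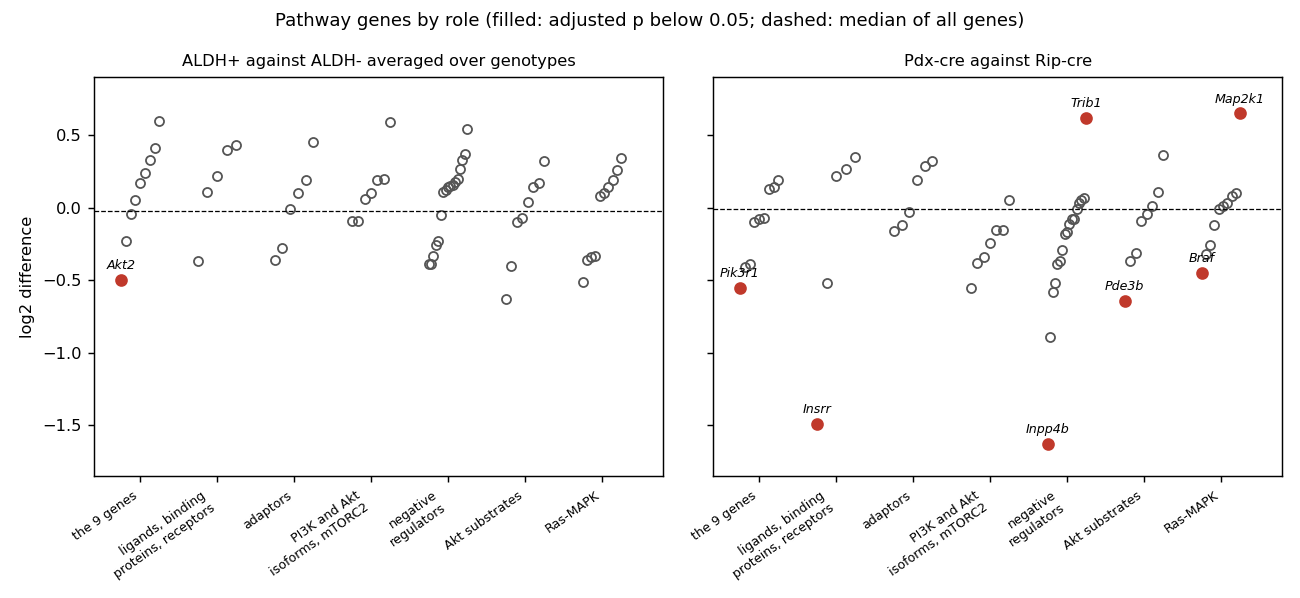
Difference on the log2(rescaled FPKM + 1) scale for the 9 genes and the 53 tested pathway genes by role, ALDH+ minus ALDH- averaged over genotypes (left) and Pdx-cre minus Rip-cre (right), 1 point per gene. Filled, named points passed an adjusted p of 0.05: *Akt2* alone on the left, and *Pik3r1* with 6 pathway genes on the right, of which *Insrr* (-1.49) and *Inpp4b* (-1.63) lie lowest. *Inpp4b* was under 1 FPKM in every Pdx-cre library and met the filter only through the Rip-cre libraries.

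Levels of the related isoforms and ligands place the members within their families. Among regulatory PI3K subunits *Pik3r3* was at a median of 11.1 FPKM and *Pik3r2* at 2.93 FPKM, and among catalytic subunits *Pik3cb* was at 2.36 FPKM, with *Pik3cd* and *Pik3cg* at no more than 0.915 FPKM in any library. *Insrr*, at a median of 30.1 FPKM over all libraries, was above *Insr* (12.3 FPKM). In Pdx-cre libraries their ranges overlapped, with *Insrr* at 6.81 to 27.9 FPKM (median 12.0) and *Insr* at 9.65 to 14.3 FPKM (median 11.6). *Igf2* was at 1.46 to 29.6 FPKM, whereas *Igf1*, *Igfbp1*, *Igfbp6* and *Irs4* were listed at 0 in every library. *Ins1* was listed at 0 in all 15 because its estimate was too deep to give.

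The genes whose pattern over the 15 libraries was most like that of each member were listed by Pearson's r of log2(rescaled FPKM + 1) among the genes tested, as a description. All share the same libraries, depth and mixture of cells. Spearman's rank correlation of these pairs ran from 0.586 (*Akt2* with *Commd5*) to 0.939 (*Pik3ca* with *Dgcr8*), and was 0.679 for *Igf1r* with *Pom121*. Low values were found for *4933431E20Rik* (0.226 to 3.00 FPKM) and *4932413F04Rik* (0.157 to 7.07 FPKM). *Pik3r1* was most like *Tead1* (r = 0.959) and *Pclo* (r = 0.942), and *Pik3ca* like *Tmem131* (r = 0.905) and *Dgcr8* (r = 0.899). *Igf1r* was most like *Fam134b* (r = 0.885) and *Pom121* (r = 0.860), and *Insr* like *Adora3* (r = 0.782) and *Caprin1* (r = 0.773). *Irs1* was most like *4933431E20Rik* (r = 0.843) and *Mospd3* (r = 0.777), and *Irs2* like *4932413F04Rik* (r = 0.876) and *Prrc2c* (r = 0.820). For *Akt1* the genes were *Ssbp2* (r = 0.871) and *2700078E11Rik* (r = 0.861), for *Akt2* they were *Glul* (r = 0.884) and *Commd5* (r = 0.811), and for *Pdpk1* they were *Mtx2* (r = 0.875) and *Gstm4* (r = 0.832).

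In the authors' coordinates, which use mm9, the genes lie on 7 chromosomes. *Akt2* spans chr7:28376579-28424472 and shares chromosome 7 with *Igf1r* (chr7:75097143-75378553). *Pik3r1* spans chr13:102450718-102538172, *Pik3ca* chr3:32335073-32367408, *Pdpk1* chr17:24210647-24278561 and *Akt1* chr12:113892032-113912487. *Insr* (chr8:3150922-3279617) and *Irs2* (chr8:10986964-11008430) are both on chromosome 8, and *Irs1* spans chr1:82229680-82288014.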

How the data were processed

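Cells were sorted for RFP and for turnover of BODIPY-aminoacetaldehyde, and poly-A RNA was made into libraries with the TruSeq kit. The authors deposited 1 gene table per library in the Cufflinks layout, with FPKM, its confidence bounds and an estimate status. The submitters' processing notes name bcl2fastq 1.8.4, TopHat2 2.0.4 and mm9. The quantifier's version, the annotation and the use of strand are not given in the sources used here, and without strand a gene and an overlapping antisense gene cannot be told apart. The study tested counts with DESeq, and counts were not used here.

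Each table lists 23699 entries. Symbols on more than 1 line (248 symbols) and 63 lines whose estimate failed or was too deep in any library were left out, which left 22924 genes. Fragments behind each value were worked out from the width of the authors' interval and summed to 6718758 to 9603926 per library. Such counts cover counting error only. For scaling between libraries, M-values of FPKM were averaged without weights after trimming 30% of the M and 5% of the A values at either end. The log2(rescaled FPKM + 1) values entered limma 3.58.1 (R 4.3.3), with 4 groups and the cre driver in the model, a trend in the prior variance, and genes of mean rescaled FPKM of at least 1. Fold changes on this scale understate the change of low genes. All p-values are two-sided, with Benjamini-Hochberg adjustment over the genes of a comparison and a threshold of 0.05. There were 8 comparisons. Exact tests permuted libraries, and intervals are at 95%. The procedure was also run on simulated data with independent normal noise and no cell mixture, length trend or pairing. That run says nothing of those features, and its rates of recovery and false calls are not given here.

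The members and lists were chosen with earlier results of these data known. Pathway genes were named when they passed in any comparison or had the largest ALDH difference of their role group. For each member the 2 genes of highest correlation were named. Promoter windows came from RefSeq tables of GRCm38.p6, and their coordinates were never combined with mm9.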

Additional observations from a re-analysis of the deposited data

How the results depend on the processing

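Among single members, 1729 of 1809 values under the alternatives kept their direction and their side of the threshold, 58 changed sign with 1 of the values within 1 standard error of 0, 19 lost the call (all *Akt2* in ALDH+ against ALDH- averaged over genotypes) and 3 gained one (*Pik3r1* in the same comparison, with no filter on low values, with upper quartile scaling, or without knockout ALDH- 2, adjusted p = 0.0354, 0.0272 and 0.0374, limma). The cause of these changes was not tested. The number of members called in that comparison, 1, was 0 with FPKM as deposited, in Rip-cre or Pdx-cre libraries only, with no cre driver in the model and with either replicate block, 2 with no filter on low values, and 0 to 2 without 1 library. Upper quartile scaling also called 1 gene, *Pik3r1* in place of *Akt2*. The exact p of *Pdpk1* rose from 0.0179 to 0.0766 with FPKM as deposited. Over all genes, the 673 calls averaged over genotypes became 4 in Pdx-cre libraries only (chosen after seeing the data), 156 in Rip-cre libraries only, 282 with the length trend removed, 185 with no cre driver, and 3 to 831 without 1 library, the 3 without control ALDH+ 1. The 137 calls in control cells became 20 in Rip-cre libraries only, 449 with the compared groups only, 7 with the length trend removed, 0 with no cre driver, 49 with upper quartile scaling, and 0 to 245 without 1 library (0 without any control ALDH- library, 1 without control ALDH+ 1). The 2 calls in knockout cells became 0 in Rip-cre libraries only, 1 with the compared groups only, 1 with no filter, 5 with upper quartile scaling, and 1 to 3 without 1 library. Between genotypes, the 2 calls in ALDH- cells became 1 with FPKM as deposited, in Rip-cre libraries only or with no cre driver, 5 with a pseudocount of 5, and 0 to 4 without 1 library. In ALDH+ cells the 0 calls became 5 in Rip-cre libraries only, 33 with no filter, 1 with a pseudocount of 5, and 0 to 4 without 1 library. The 0 calls for a difference between genotypes in the ALDH response became 3 in Rip-cre libraries only, 16 with no filter, and 0 to 3 without 1 library, and those for a difference between cre drivers 3 with no filter and 0 to 2 without 1 library. The 1095 calls between cre drivers ranged from 697 to 1266 without 1 library. Leaving out 1 control ALDH+ library leaves a lone sample, which is assumed to vary like the other groups.

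Correlations between equal replicate numbers gave no sign of pairing, and the main model treats the libraries as unpaired. Deviations of same-numbered ALDH- and ALDH+ libraries from the fit of groups and cre driver correlated between -0.0446 and 0.0704, below the 0.1 required. The deviations of the 2 control ALDH+ libraries mirror each other, so the control correlations say little. Every knockout number joins libraries of the same cre driver. The control number 2 joins a Rip-cre and a Pdx-cre library. These correlations cannot show whether ALDH- and ALDH+ cells came from the same mice. With the replicate number as a block, the calls averaged over genotypes were 22 and those in control cells 2. With a replicate block within cre driver they were 262 and 1. *Akt2* averaged over genotypes had an adjusted p of 0.0976 and 0.0631 under these blocks (limma).

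Depth limits *Irs1* most, with 86 fragments in its shallowest library. The 2 control ALDH+ libraries limit every comparison within control cells.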
